A study of Mus musculus with 8 samples.

Results

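The genes described here are the nuclear genes for the subunits of the mitochondrial respiratory chain and ATP synthase, measured in early B cells of WT and lactoferrin knockout (Lf-/-) mice. Members were all genes whose symbol begins with Nduf, Uqcr, Cox4, Cox5, Cox6, Cox7, Cox8 or Atp5, plus Sdha, Sdhb, Sdhc and Sdhd. Cox6a2 and symbols ending in -ps were left out, and a member had to reach 1 FPKM in at least 2 libraries. FPKM counts sequenced fragments per length of transcript and per depth of library, so it can be compared between genes. Of the 52550 genes in the files, 92 met the rule on names and 87 also met the rule on level. The rule used no comparison between groups. Sorted by role, the 87 were 7 core subunits, 29 accessory subunits and 8 assembly factors of complex I, the 4 subunits of complex II, 8 of complex III, 14 of complex IV and 15 of ATP synthase, and 2 genes (Atp5s and Atp5sl) that carry the Atp5 prefix but are named Dmac2l and Dmac2 in RefSeq and are not subunits.

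Pre-pro-B cells (the earlier stage) and pro-B cells (the later stage), the first steps of the B lineage, were sorted by flow cytometry from bone marrow of WT and Lf-/- mice of strain C57BL/6J, and their RNA was sequenced to ask how loss of lactoferrin alters these cells. The 7 libraries were 2 of WT pre-pro-B, 2 of Lf-/- pre-pro-B, 1 of WT pro-B and 2 of Lf-/- pro-B cells, and the other sample of WT pro-B cells is not analysed here. The Lf-/- mice carried a knockout of the lactoferrin gene and no other treatment is named for either genotype. The labels give no age for the mice and do not say whether libraries of a group came from separate mice, so p-values measure only the spread between these libraries.

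Ltf, which encodes lactoferrin, was at 2143 and 2731 FPKM in WT and 88.2 and 149 in Lf-/- cells at the earlier stage, with 2650 in WT and 168 and 96.0 in Lf-/- cells at the later stage, so all Lf-/- libraries lay below all WT libraries. In each library 18 neutrophil granule genes took between 27.7% and 55.7% of summed FPKM, erythroid genes between 1.93% and 15.2%, and 23 early B lineage genes between 0.0305% and 0.447%, so transcripts of neutrophils far outweighed the defining transcripts of the labelled cell type. The early B share was 0.0842%, 0.0805% and 0.0305% in the WT libraries and 0.447%, 0.374%, 0.415% and 0.230% in the Lf-/- libraries. In bulk RNA, fewer cells of a type and less RNA per cell cannot be told apart. Lf-/- pre-pro-B replicate 2 stood apart, with 12172 genes above 0 against 19477 to 20250 in the other 6 libraries. The height of the steps in low values gave 10800000 to 15200000 fragments in those 6 libraries and could not be read in that one. A level of 1 FPKM in a transcript of 500 bases therefore rested on 5.4 to 7.6 fragments.

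Oxidative phosphorylation passes electrons from NADH (complex I) and succinate (complex II) through ubiquinone, complex III, cytochrome c and complex IV to oxygen, and the protons pumped on the way drive ATP synthase. The mitochondrial genome encodes core membrane subunits of complexes I, III, IV and ATP synthase, while every other subunit, all of complex II and all assembly factors come from the nucleus, so each complex needs both genomes. In bone marrow, dividing lymphoid progenitors use respiration as well as glycolysis, whereas mature neutrophils carry few mitochondria and depend largely on glycolysis.

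The members were among the abundant genes of all 7 libraries. The median of their mean levels was 84.4 FPKM, above 93.9% of the 10793 genes at 1 FPKM or more in at least 2 libraries, whose median was 4.13 FPKM. 34 members had a mean of 100 FPKM or more and 10 had one under 10 FPKM. Complex IV (median 124 FPKM), complex III (115 FPKM) and ATP synthase (106 FPKM) led, followed by complex I accessory subunits (83.0 FPKM), complex I core subunits (59.3 FPKM) and complex II (52.8 FPKM). The complex I assembly factors were far lower, with a median of 7.90 FPKM. Levels followed transcript length even though FPKM is a level per length. Spearman's rho between level and longest transcript was -0.57 over the 87 members and -0.28 over all 10793 genes, as a description across genes that share the same libraries.

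**Figure D1:**
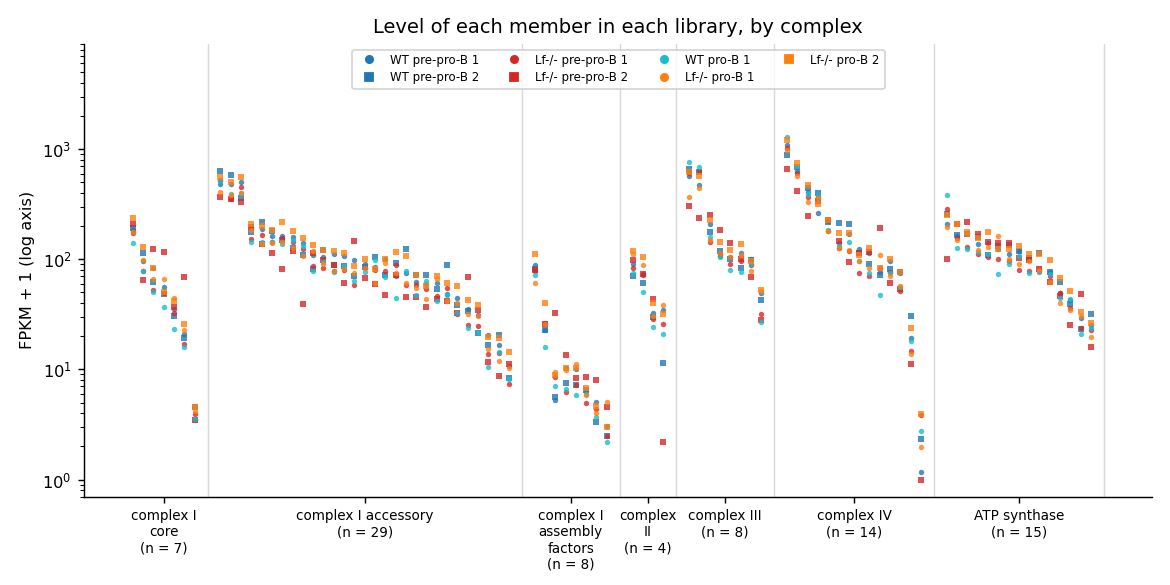
FPKM + 1 of 85 members in each library on a log axis, grouped by complex and ordered by mean level, with color for genotype and stage and shape for the replicate number (Atp5s and Atp5sl are not drawn). Within most members the libraries lie close together, while Lf-/- pre-pro-B replicate 2 (red squares) stands off for Sdha at 1.19 FPKM, Ndufv1 at 67.8 FPKM and Ndufaf6 at 31.6 FPKM.

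The highest member was Cox6a1, a small nuclear subunit of complex IV, at 1082 and 886 FPKM in WT and 1024 and 659 in Lf-/- cells at the earlier stage, with 1281 in WT and 984 and 1200 in Lf-/- cells at the later stage. Cox8a, another small subunit of that complex, came next with a mean of 622 FPKM and a range of 419 to 746. Uqcr11 and Uqcr10, single-helix subunits of complex III, followed in that complex with means of 557 and 524 FPKM. The 2 highest accessory subunits of complex I were Ndufa2 (mean 496 FPKM) and Ndufb9 (435 FPKM), and the 2 highest core subunits were the iron-sulfur proteins Ndufs8 (187 FPKM) and Ndufs7 (93.2 FPKM). Ndufs1, the largest nuclear core subunit, was the lowest of its group at 2.46 to 3.56 FPKM in all libraries. In ATP synthase, Atp5k (subunit e of the membrane sector) had a mean of 239 FPKM and Atp5c1 (the rotating gamma subunit) one of 167 FPKM. Sdhd and Sdhb, the membrane anchor and the iron-sulfur subunit of complex II, had means of 91.5 and 73.9 FPKM.

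Among tissue isoforms, the general form was the one present. Cox4i1 made up at least 99.8% of the Cox4 pair in every library, and its low-oxygen isoform Cox4i2 reached at most 0.554 FPKM. Cox7b2, Cox8b and Cox8c, known from testis or muscle, were listed at 0 in all 7 libraries, and Ndufa4l2, known from hypoxia, was above 0 only in WT pre-pro-B replicate 1 at 0.0835 FPKM. These 5 genes met the rule on names and missed the rule on level. Cox6b2, described as the testis form of Cox6b, was present at 10.2 to 29.8 FPKM, or 3.64% to 6.28% of its pair. Cox7a1, the muscle form of Cox7a, was the lowest member at a mean of 1.43 FPKM and was listed at 0 in Lf-/- pre-pro-B replicate 2. Cox5a and Cox5b, which are separate subunits, stood at similar levels, with Cox5a at 45.1% to 60.7% of their sum. Of the 3 genes for the same c-ring protein of ATP synthase, Atp5g3 gave 63.7% to 67.8%, Atp5g1 11.4% to 24.6% and Atp5g2 11.7% to 21.9%. These splits leave out annotated copies elsewhere in the genome, described below. The copies had means of 68.0 FPKM for Atp5g1, 49.6 for Atp5g2 and 56.7 for Cox5b, while Atp5g3 and Cox5a had none. The splits of Atp5g and Cox5 are therefore uncertain.

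The Cox7a family was the set whose makeup varied most between libraries. Cox7a2l is a relative of Cox7a2 that has been described in supercomplexes of complexes III and IV, which were not measured here. It was at 76.0 and 70.5 FPKM in WT and 81.6 and 190 in Lf-/- cells at the earlier stage, with 46.2 in WT and 108 and 82.8 in Lf-/- cells at the later stage. Every Lf-/- value lay above every WT value, as in 9.87% of all genes, and under median-ratio scaling 0 members separated this way. The share of Cox7a2l in the family was 25.7%, 24.3% and 19.8% in the WT libraries. In the Lf-/- libraries it was 30.7%, 45.7%, 37.2% and 26.4%, without overlap. Cox7a2 itself stayed between 181 and 228 FPKM, so this share largely restates the values of Cox7a2l.

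20 members had annotated copies elsewhere in the genome that match at least 80% of the coding bases at 95% identity or more, 37 copies in all, of which 33 were processed pseudogenes, 2 transcribed processed pseudogenes and 2 protein-coding genes. How the authors' counting divided reads between such copies is not given in the sources used here, so the levels of these members are uncertain. In 5 members (Atp5l, Atp5g1, Atp5g2, Ndufab1 and Cox7c) the copies held more FPKM than the member, and in 14 they held over 10% of the joint level. Atp5l, subunit g of ATP synthase at chr9:44912557-44920742 (GRCm38, minus strand), was the extreme case, with a mean of 22.7 FPKM against 264 FPKM in its 8 copies. The copies held 90.9% to 92.4% in every library. A single copy, Gm10221 at chr5:24581554-24581862 (minus strand), held 200 FPKM. The first 120 coding bases are shown because a read from them matches more than 1 locus. They are read from GRCm38, capitals mark bases that differ from Atp5l, and positions count from the A of the start codon.
Atp5l: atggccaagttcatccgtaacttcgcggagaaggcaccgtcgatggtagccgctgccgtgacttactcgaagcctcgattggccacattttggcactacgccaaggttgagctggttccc
Gm10221: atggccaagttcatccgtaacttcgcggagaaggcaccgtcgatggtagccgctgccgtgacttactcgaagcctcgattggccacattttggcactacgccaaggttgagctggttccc
Atp5l2-ps: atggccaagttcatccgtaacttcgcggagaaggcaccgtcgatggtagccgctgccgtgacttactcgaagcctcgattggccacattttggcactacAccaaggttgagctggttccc
Gm6822: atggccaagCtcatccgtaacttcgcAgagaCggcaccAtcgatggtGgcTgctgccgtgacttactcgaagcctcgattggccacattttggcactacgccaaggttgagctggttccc

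Gm10221 has no difference from Atp5l in these bases and matches its whole coding sequence at 100% identity. Atp5l2-ps (chr11:97768060-97768371, plus strand, 34.9 FPKM) differs at 1 of the 120 bases, G100A. Gm6822 (chr1:55160747-55161053, minus strand) differs at 6 bases and was at 5.11 FPKM. The joint level of Atp5l and its copies would place it above Atp5k, the highest member of its complex. 27 members also overlap exons of another gene on the opposite strand and 5 on the same strand, and whether counting used strand is not given in the sources used here.

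**Figure D2:**
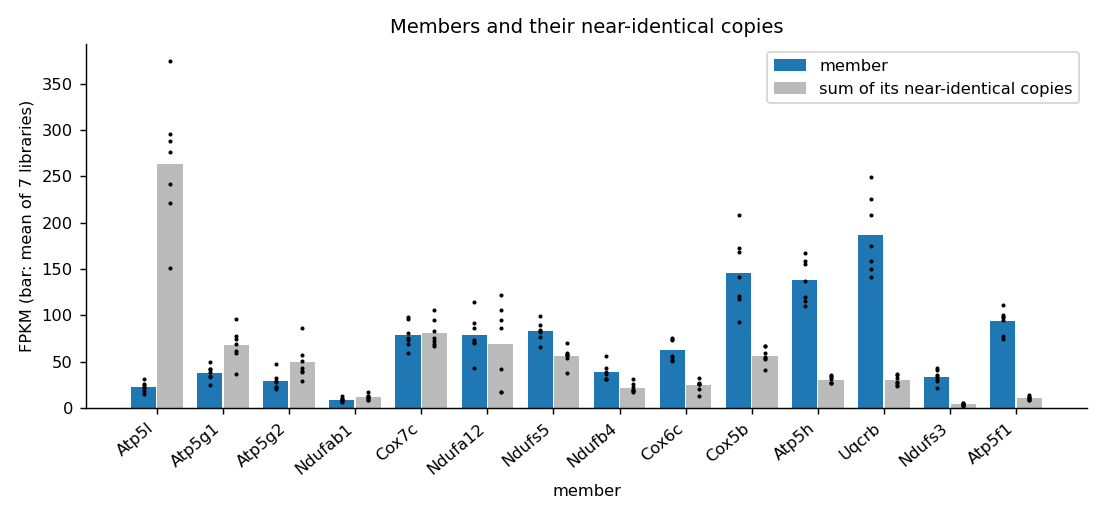
Mean FPKM of the 14 members with over 10% of their joint level in near-identical copies (blue) beside the sum of those copies (grey), with a dot for each of the 7 libraries. For Atp5l the copies sum to 264 FPKM against 22.7 for the member, and for Ndufa12 the dots of the copy spread from 17.3 to 122 FPKM.

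The share of summed FPKM taken by the 87 members was 1.42% and 1.51% in WT and 1.24% and 1.35% in Lf-/- cells at the earlier stage, with 1.30% in WT and 1.36% and 1.77% in Lf-/- cells at the later stage. In pre-pro-B cells both Lf-/- shares lay below both WT shares (1.30% ± 0.0778 against 1.47% ± 0.0649, SD, n = 2 each), and an exact two-sided permutation test gave p = 0.333, the smallest that 2 against 2 allows. Over both stages the groups overlapped, at 1.41% ± 0.107 in WT (n = 3) and 1.43% ± 0.229 in Lf-/- (n = 4), with an exact p = 1 where 0.0571 is the smallest possible. The pre-pro-B difference was carried by the accessory subunits of complex I (0.486% in WT and 0.402% in Lf-/-) and by complex IV (0.440% and 0.381%). The makeup by complex was steady across the 7 libraries for the largest groups. Complex I accessory subunits took 29.5% to 33.4% of the members' sum, complex IV 28.3% to 32.9%, complex III 13.8% to 18.3% and ATP synthase 13.5% to 16.9%. Smaller groups varied more for their size. Complex I core subunits took 3.13% to 6.56%, complex II 1.44% to 2.65% and the assembly factors 1.03% to 1.84%.

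The 13 mitochondrially encoded subunits followed another order. They took 1.51% and 0.966% in WT and 1.44% and 1.61% in Lf-/- cells at the earlier stage, with 0.982% in WT and 2.14% and 1.35% in Lf-/- cells at the later stage. The ratio of mitochondrially to nuclear encoded FPKM was 1.06, 0.638 and 0.756 in the WT libraries and 1.16, 1.19, 1.57 and 0.764 in the Lf-/- libraries, so the genotypes overlapped. An exact permutation test of the mitochondrial share over both stages gave p = 0.171 (1.15% ± 0.308, n = 3, against 1.64% ± 0.354, n = 4).

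**Figure D3:**
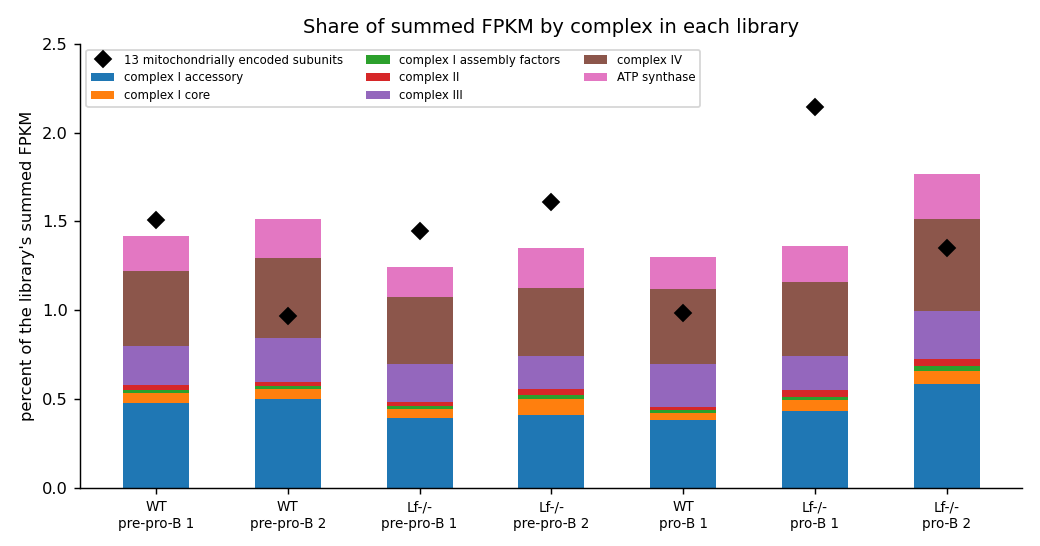
Percent of each library's summed FPKM taken by each complex (stacked bars, nuclear genes) and by the 13 mitochondrially encoded subunits (diamonds). The bars run from 1.24% in Lf-/- pre-pro-B replicate 1 to 1.77% in Lf-/- pro-B replicate 2, and the diamonds do not follow them.

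In pre-pro-B cells no member passed a test between genotypes. The limma fit of log2(FPKM + 1) on 2 WT and 2 Lf-/- libraries called 0 of 9720 genes (0% of all genes) at an adjusted p of 0.05, and 0 of the 87 members. At an unadjusted p of 0.05 it called 284 genes (2.92%) and again 0 members, and the lowest adjusted p of a member was 0.941. Without Lf-/- replicate 1, which leaves the library that stood apart as the only Lf-/- one, limma called 3338 of 9143 genes (36.5%) and 11 of 86 members, among them Ndufaf6, Ndufv1 and Cox7a2l with higher values and Sdha, Ndufs6 and Atp5k with lower values in Lf-/- cells. At an unadjusted p of 0.05 it called 20 members there (48.3% of genes). 60 members were lower and 27 higher in Lf-/- cells, with a median difference of -0.19 where the median over all genes was 0.03. Under 4 other scalings of the libraries the median of the members kept its sign, from -0.15 to -0.36.

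Separation of the groups showed the same lean. In 33 of the 87 members (37.9%) both Lf-/- pre-pro-B values lay below both WT values, against 17.7% of all genes tested, and in 4 members (4.6%) both lay above, against 15.5%. The genes compared were not matched to the members for level or length. Members had a median of 84.4 FPKM and 1200 transcript bases, against 4.13 FPKM and 2411 bases for genes at the level rule over the 7 libraries. The 33 included 15 of the 29 accessory subunits of complex I, 7 of the 14 complex IV genes and 7 of the 15 ATP synthase genes, but 1 of 7 core subunits and 0 of 4 complex II subunits. Without Lf-/- pre-pro-B replicate 2 the counts were 54 lower, where all genes had 45.9%, and 7 higher, where all genes had 27.6%. The 4 members above in both Lf-/- libraries were Cox7a2l, Ndufaf3, Ndufaf6 and Atp5sl. Beside this, all 18 neutrophil granule genes (16 under quantile normalization) had a lower mean of log2(FPKM + 1) in Lf-/- pre-pro-B cells. The 18 include Ltf, the gene knocked out. Their share of summed FPKM was 41.3% and 42.1% in WT, 39.6% in Lf-/- replicate 1 and 27.7% in replicate 2. All 21 early B genes tested had a higher mean in Lf-/- pre-pro-B cells. The part of cell makeup in the members' values was not tested.

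**Figure D4:**
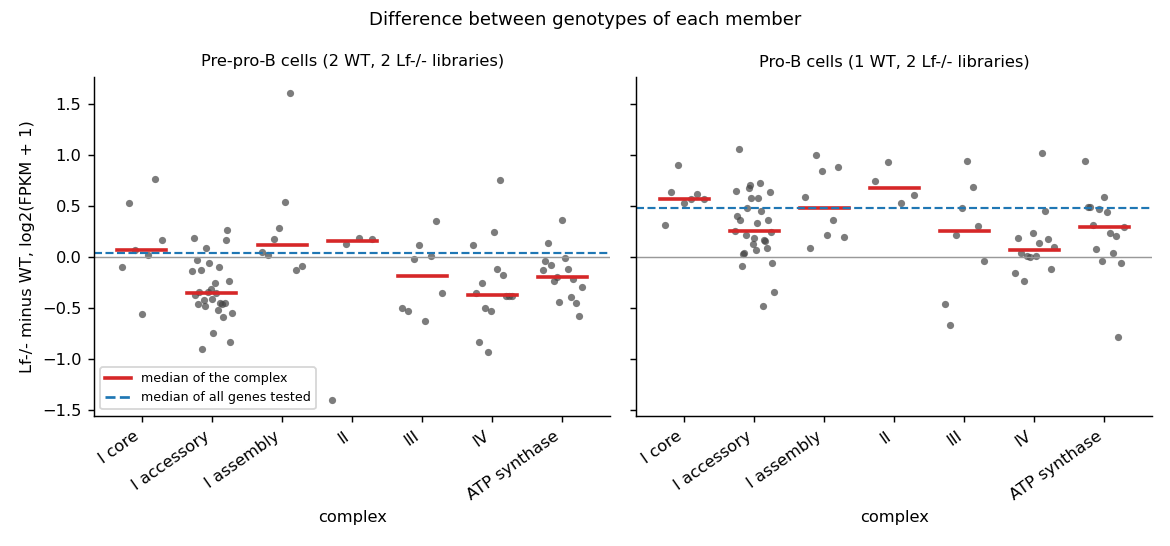
Lf-/- minus WT difference on the log2(FPKM + 1) scale of each member (dots) in pre-pro-B cells (left) and pro-B cells (right), by complex, with the median of the complex (red) and of all genes tested (blue dashes). In both panels the medians of complex I accessory subunits, complex III, complex IV and ATP synthase lie below the blue line and those of complex I core subunits and complex II above it.

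Within complex I, the core subunits had a median difference of 0.06 in pre-pro-B cells (5 of 7 higher), the accessory subunits one of -0.35 (25 of 29 lower) and the assembly factors one of 0.11 (6 of 8 higher). Under median-ratio scaling and under equal totals without the granule genes the core and assembly medians were at or below -0.01 (lowest -0.10 and -0.05), while that of the accessory subunits kept its sign under all 4 other scalings (-0.31 to -0.51). Ndufv1, the core subunit that accepts electrons from NADH, was at 19.9 and 18.3 FPKM in WT and 15.8 and 67.8 in Lf-/- cells of the earlier stage. The groups overlapped, and its difference of 0.76 ± 0.72 (log2, SE) turned to -0.25 without Lf-/- replicate 2. Ndufs7, which holds the last iron-sulfur cluster before ubiquinone, was at 95.5 and 114 FPKM in WT and 77.5 and 64.2 in Lf-/- cells, without overlap, a difference of -0.56 ± 0.40.

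Among accessory subunits, Ndufa5 of the peripheral arm was at 73.3 and 123 FPKM in WT and 57.1 and 44.4 in Lf-/- cells of the earlier stage. It had the most negative difference of its group, -0.90 ± 0.46. Ndufb9 of the membrane arm was at 485 and 579 FPKM in WT against 351 in both Lf-/- libraries. Ndufs4, an accessory subunit whose loss causes mitochondrial disease, was at 34.4 and 33.0 FPKM in WT against 24.3 and 67.6 in Lf-/- cells. The Lf-/- values of Ndufs4 lay on either side of WT, and its difference of 0.26 ± 0.58 became -0.46 without replicate 2. Of the assembly factors, Ndufaf6 was at 4.28 and 4.63 FPKM in WT and 7.53 and 31.6 in Lf-/- cells at the earlier stage, with 6.12 in WT and 8.48 and 7.88 in Lf-/- cells at the later stage. All 4 Lf-/- values exceeded all 3 WT values, and the pre-pro-B difference was 1.61 ± 0.71. Ndufaf3, which acts early in assembly, was also without overlap, at 15.1 to 22.0 FPKM in WT and 24.6 to 39.4 FPKM in Lf-/- libraries. Ndufaf7, an arginine methyltransferase, was at 9.13 and 6.15 FPKM in WT and 6.26 and 7.36 in Lf-/- pre-pro-B cells, which overlap.

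Complex II had a median pre-pro-B difference of 0.15 (3 of 4 higher), which was -0.02 under median-ratio scaling. Sdhb was at 72.7 and 59.5 FPKM in WT and 71.0 and 72.7 in Lf-/- pre-pro-B cells, and Sdhc, a membrane anchor, was at 31.4 and 28.8 FPKM in WT and 27.8 and 42.8 in Lf-/- cells. The groups overlapped in both. Sdha, the flavoprotein that oxidizes succinate, was at 33.7 and 10.5 FPKM in WT and 24.9 and 1.19 in Lf-/- cells at the earlier stage, with 19.99 in WT and 37.5 and 31.0 in Lf-/- cells at the later stage. It differed by 3.56 on the log2 scale between the Lf-/- pre-pro-B replicates, more than any other member, and its genotype difference of -1.41 ± 1.23 turned to 0.38 without replicate 2. Sdha was also the only member 2-fold apart between the 2 WT pre-pro-B libraries on the log2(FPKM + 1) scale.

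Complex III, complex IV and ATP synthase had negative medians of -0.19, -0.37 and -0.19 in pre-pro-B cells, and these signs held under all 4 other scalings. In complex III, Uqcrc2, a core protein of the matrix side, was at 48.6 and 41.9 FPKM in WT and 30.7 and 27.0 in Lf-/- pre-pro-B cells (-0.63 ± 0.40). Uqcrh, the hinge protein, was at 106 and 117 FPKM in WT and 111 and 183 in Lf-/- cells, and its difference of 0.35 ± 0.44 was -0.0036 without Lf-/- replicate 2. In complex IV, Cox5b was at 168 and 208 FPKM in WT and 118 and 93.1 in Lf-/- pre-pro-B cells (-0.83 ± 0.41), and Cox6b2 was at 18.5 and 29.8 FPKM in WT and 13.8 and 10.2 in Lf-/- cells (-0.93 ± 0.47). Both were without overlap. Cox7a2l lay on the other side of 0, at 0.76 ± 0.53. In ATP synthase, Atp5l was at 24.4 and 30.9 FPKM in WT and 21.7 and 15.0 in Lf-/- pre-pro-B cells (-0.58 ± 0.44, and -0.78 with its copies added). Atp5g2 was at 28.4 and 22.5 FPKM in WT and 22.8 and 47.2 in Lf-/- cells, and its difference of 0.37 ± 0.51 became -0.14 without replicate 2. Atp5s was at 2.14 and 3.23 FPKM in WT, while Lf-/- replicate 1 had 2.35 FPKM and replicate 2 was listed at 0.

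In pro-B cells, with 1 WT library, differences have no test. Relative to this library 73 members were higher and 14 lower in the mean of the Lf-/- libraries, with a median difference of 0.31 where all genes had 0.48. That direction rested on the scaling. Under median-ratio scaling the median of the members was -0.33 and that of all genes was at 0.00, while the members' median minus that of all genes was negative under each scaling (-0.17 as deposited) and 0.02 without Lf-/- pro-B replicate 1. The WT pro-B library had the highest share of neutrophil granule genes, at 55.7%. In 51 members (58.6%) both Lf-/- values lay above the WT value, against 75.3% of all genes, and in 7 members (8.05%) both lay below, against 6.9%. The 7 were Atp5k, Cox4i1, Cox6a1, Ndufb7, Ndufv3, Uqcr10 and Uqcr11.

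2 members were 2-fold or more apart with both Lf-/- values on 1 side, against 13.5% of all genes, and both were higher. The count was 3, all higher, without Lf-/- replicate 1 (13.2% of all genes) and 5, 4 of them higher, without Lf-/- replicate 2 (19.8%), and under median-ratio scaling it was 5, all lower (7.58%). Ndufa12, an accessory subunit of the peripheral arm of complex I, had a level of 43.7 FPKM in the WT library against 73.9 and 114 for Lf-/- (1.06). Its near-identical copy had 17.6 FPKM there against 94.5 and 85.9 for Lf-/-. At the earlier stage the same copy ranged from 17.3 to 122 FPKM between the 2 WT replicates, so the split of reads between gene and copy varied within a group. Cox7a2l was the other (1.02). Both were under 2-fold with median-ratio scaling, at 0.40 and 0.36. Atp5k had the most negative pro-B difference, at 381 FPKM in WT and 197 and 249 in Lf-/- cells (-0.78), followed by Uqcr11 at 761 FPKM in WT and 369 and 620 in Lf-/- cells (-0.67). All 7 core subunits, all 8 assembly factors and all 4 complex II subunits were higher, where 87.0% of all genes were. Their medians were 0.57, 0.48 and 0.67, and under median-ratio scaling these medians were -0.09, -0.11 and 0.02. Complex IV had a median of 0.07 and ATP synthase one of 0.29.

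Over both stages, a fit with genotype and stage on all 7 libraries called 20 of 10793 genes (0.185%) and 0 members. At an unadjusted p of 0.05 limma called 2 members, Cox7a2l and Atp5sl, both higher, against 7.17% of all genes. That count was 10, all lower, under median-ratio scaling (7.47% of all genes), and 16, 11 higher and 5 lower, without Lf-/- pre-pro-B replicate 1 (28.7%). Cox7a2l was 0.86 ± 0.35 higher (adjusted p = 0.655). Atp5sl, an assembly factor of the distal membrane arm of complex I, was at 5.48, 3.40 and 3.53 FPKM in WT against 5.93, 14.8, 10.3 and 5.27 in Lf-/- libraries, which overlap (0.94 ± 0.40, adjusted p = 0.689). Ndufaf6 had the largest difference of all members, 1.11 ± 0.49, with an adjusted p = 0.689. Ndufv1 (0.70 ± 0.46), Sdhb (0.45 ± 0.29), Atp5g2 (0.45 ± 0.33) and Ndufs4 (0.41 ± 0.38) had the largest positive differences of their groups. Atp5k (-0.58 ± 0.39), Uqcr11 (-0.59 ± 0.34), Cox6b2 (-0.56 ± 0.37) and Ndufa5 (-0.52 ± 0.37) had the most negative ones of theirs. In complex II the most negative was Sdha (-0.55), and among core subunits Ndufs7 (-0.12). None of these passed a threshold.

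Every Lf-/- value lay above every WT value in 3 members over both stages (Cox7a2l, Ndufaf3 and Ndufaf6), against 9.87% of all genes, and below in 2 members (Ndufb7 and Ndufv3), against 1.13%. Ndufb7, at the intermembrane face of the membrane arm, was at 84.5 and 103 FPKM in WT and 78.4 and 58.7 in Lf-/- cells at the earlier stage, with 96.9 in WT and 59.7 and 79.9 in Lf-/- cells at the later stage. Under median-ratio scaling 0 members lay above, against 5.16% of all genes, and 13 below, against 5.97%. With equal totals 0 lay below, against 0.574%. 44 members were higher and 43 lower, with a median of 0.01 against 0.21 over all genes. The members' median was -0.35 under median-ratio scaling, and minus that of all genes it lay between -0.18 and -0.29 under the 5 scalings. Complex IV and the accessory subunits of complex I stayed below the median of all genes under each scaling, with medians of -0.26 to -0.48 and -0.26 to -0.36 relative to it, while core subunits stayed above it at 0.03 to 0.14.

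Between stages, limma called 1 of 10793 genes (0.00927%) and 0 members, and at an unadjusted p of 0.05 it called 2.41% of genes and 0 members (16.7% of genes and 9 members without Lf-/- pre-pro-B replicate 1). 49 members were higher and 38 lower in pro-B cells. The difference of the genotype difference between stages called 0 genes (0%) and 0 members, and at an unadjusted p of 0.05 it called 2.74% of genes and 1 member. That member was Uqcrc2, which was lower in both Lf-/- pre-pro-B libraries than in WT and higher in both Lf-/- pro-B libraries (50.1 and 51.3 FPKM) than in WT pro-B (26.0 FPKM), with a difference of differences of 1.57 ± 0.54 (adjusted p = 0.990). This comparison rests on 1 WT pro-B library, which was assumed to vary like the others. Without Lf-/- pre-pro-B replicate 1 it called 5.3% of genes and 1 member at an adjusted p of 0.05, and 27.6% of genes and 10 members at an unadjusted one. With no filter on level the unadjusted count was 5 members, against 5.86% of genes.

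Replicates of the members differed less than those of other genes in the library pair that stood apart. The median absolute log2 difference between replicates was 0.27 for members and 0.27 for all genes in the WT pair. The Lf-/- pairs had 0.47 and 0.92 at the earlier stage, and 0.39 and 0.32 at the later stage. In Lf-/- pre-pro-B cells 17 members (19.5%) were 2-fold or more apart, against 46.3% of genes. These comparisons were not matched for level, and members had a median of 84.4 FPKM against 4.13 for all genes. Lf-/- pro-B replicate 2 held the highest value of the 7 libraries for 41 members (47.1%), against 16.3% of genes. Its members had a median of 106 FPKM, above the 72.7 to 90.1 FPKM of the other libraries.

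The difference between genotypes followed the length of the member. Over the 87 members, Spearman's rho between coding length and the difference was 0.33 at the earlier stage and 0.63 at the later one. The 19 members under 300 coding bases had median differences of -0.36 and 0.08, in the same order, and the 68 longer ones had -0.12 and 0.44. Against the longest annotated transcript, rho was 0.070 and 0.38 over the members and 0.13 and 0.069 over all genes with a length. These are descriptions across genes of the same libraries, without a p. Of the 19 short members 15 belong to complexes III and IV and ATP synthase (such as Uqcr11, Uqcr10, Cox7c, Cox8a, Atp5e and Atp5k), so length and role cannot be told apart here.

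**Figure D5:**
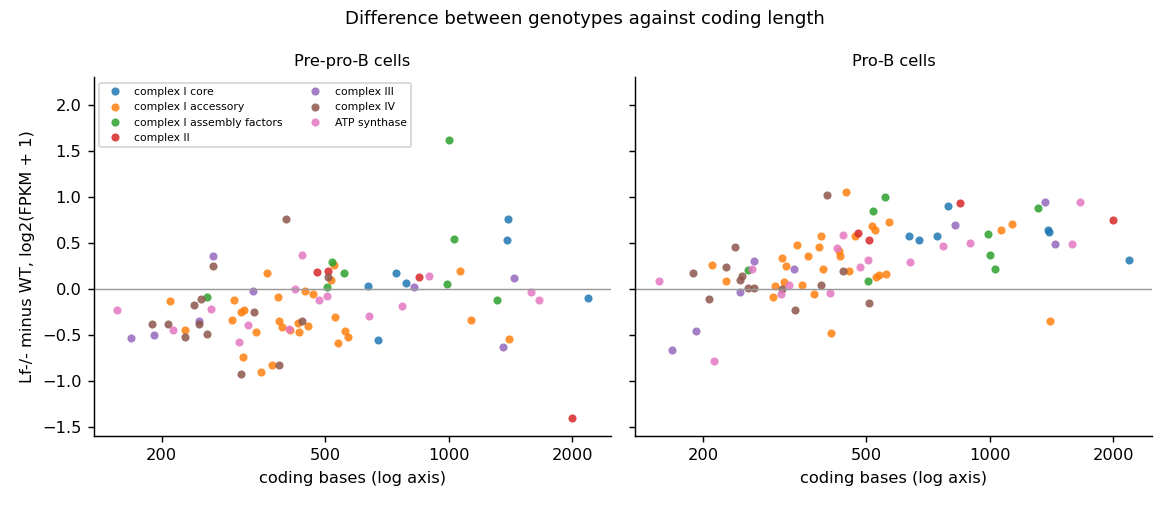
Lf-/- minus WT difference on the log2(FPKM + 1) scale against coding bases (log axis) for 85 members, colored by complex, in pre-pro-B cells (left) and pro-B cells (right). In pro-B cells the shortest members lie near or below 0 and the longer ones mostly near 0.5, with a rho of 0.63 over the 87 members.

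Promoters of respiratory chain genes are known for sites of the nuclear respiratory factors NRF1 and GABPA (the DNA-binding part of NRF2) and of YY1. RefSeq promoters (GRCm38.p6, 250 bases before to 50 after the start) were matched for 75 of the 87 members, 3 of them through a synonym. On either strand, the NRF1 letters GCGCATGC stood in 12 members (16%) and in 3.05% of all 27025 genes, the GABPA letters CCGGAAG in 18 members (24%) and 9.93% of genes, and the YY1 letters AAGATGGC in 12 members (16%) and 3.19% of genes. At least 1 of the 3 stood in 35 members (46.7%) and in 14.9% of genes. The 27025 genes were not limited to genes present in these libraries or matched to the members for level. A match is a description of letters and not of binding. The promoters of 4 members are shown, chosen after their values were seen: Cox6a1 as the highest member, Atp5k and Uqcr11 as the most negative in pro-B cells, and Cox7a2l as a member higher in each Lf-/- library. Capitals mark the letters searched on either strand. Cox6a1 lies at chr5:115348909-115349208, Atp5k at chr5:108434350-108434649, Uqcr11 at chr10:80406772-80407071 and Cox7a2l at chr17:83514284-83514583, all on the minus strand and written in the direction of transcription.
Cox6a1: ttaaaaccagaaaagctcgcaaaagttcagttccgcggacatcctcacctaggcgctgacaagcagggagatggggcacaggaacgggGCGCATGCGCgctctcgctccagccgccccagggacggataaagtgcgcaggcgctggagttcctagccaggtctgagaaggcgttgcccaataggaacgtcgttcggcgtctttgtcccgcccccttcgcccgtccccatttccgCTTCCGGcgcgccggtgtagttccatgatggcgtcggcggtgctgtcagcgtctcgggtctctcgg
Atp5k: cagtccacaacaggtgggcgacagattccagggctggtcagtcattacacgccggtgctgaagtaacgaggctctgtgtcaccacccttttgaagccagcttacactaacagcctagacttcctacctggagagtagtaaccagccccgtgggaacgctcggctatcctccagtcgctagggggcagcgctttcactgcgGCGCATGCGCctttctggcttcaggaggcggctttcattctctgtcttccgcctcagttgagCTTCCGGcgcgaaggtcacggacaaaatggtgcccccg
Uqcr11: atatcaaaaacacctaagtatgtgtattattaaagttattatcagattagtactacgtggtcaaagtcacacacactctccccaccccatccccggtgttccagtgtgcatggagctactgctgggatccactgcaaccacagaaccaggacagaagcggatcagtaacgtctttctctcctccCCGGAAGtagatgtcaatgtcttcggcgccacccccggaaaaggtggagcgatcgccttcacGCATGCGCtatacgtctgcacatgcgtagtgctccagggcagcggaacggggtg
Cox7a2l: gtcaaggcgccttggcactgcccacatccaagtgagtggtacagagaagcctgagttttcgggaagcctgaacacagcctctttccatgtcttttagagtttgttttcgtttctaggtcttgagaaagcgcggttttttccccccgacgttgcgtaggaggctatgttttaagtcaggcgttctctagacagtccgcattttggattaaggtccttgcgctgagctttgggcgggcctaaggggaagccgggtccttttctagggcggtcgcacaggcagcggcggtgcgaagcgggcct

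Cox6a1, Atp5k and Uqcr11 each hold the NRF1 and the GABPA letters, and in Cox6a1 and Atp5k the NRF1 letters read on both strands as an overlapping palindrome. None of the 3 sets of letters stands in this window of Cox7a2l. The medians of members with and without the letters are given as a description. Members with the NRF1 letters had median differences of -0.08 (earlier stage) and 0.31 (later stage), and those without had -0.22 and 0.31. Members with the GABPA letters had -0.18 and 0.14, and those without had -0.22 and 0.36. Members with the YY1 letters had -0.28 and 0.21, and those without had -0.18 and 0.31.

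Other genes of the pathway were taken from lists written by hand. All 13 mitochondrially encoded subunits had a higher mean of log2(FPKM + 1) in Lf-/- pre-pro-B cells (median 0.30) and over both stages (median 0.45), and none passed an unadjusted p of 0.05. Of all genes tested, 52.0% were higher in Lf-/- pre-pro-B cells, 66.8% over both stages and 87.0% in pro-B cells. Under median-ratio scaling 4 and 5 of the 13 were lower, with medians of 0.13 and 0.08. In pro-B cells all 13 were higher (median 0.61), mt-Cytb 2-fold at 541 FPKM in WT and 1459 and 818 in Lf-/- cells, and under median-ratio scaling 8 of the 13 were lower. Relative to the median of all genes in pre-pro-B cells, the mitochondrial genes lay at 0.23 to 0.34 under the 5 scalings and the members at -0.22 to -0.27.

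All 13 enzymes of the tricarboxylic acid cycle, which feeds complexes I and II, were higher over both stages (median 0.34, 0 at an unadjusted p of 0.05), and under median-ratio scaling 6 were lower. Of all 10793 genes tested over both stages, 66.8% were higher in Lf-/- cells, with a median of 0.21. Of 42 respiratory chain assembly factors without the Ndufaf prefix, 39 were tested over both stages, 28 were higher and 11 lower, and 5 passed an unadjusted p of 0.05, which 7.17% of all genes did, and 0 an adjusted one. Of 8 electron carriers, a list that also holds the member Uqcrfs1, 6 were higher over both stages. Cyc1, the cytochrome c1 of complex III whose symbol falls outside the rule, was at 120 to 236 FPKM, and Cycs, cytochrome c, at 56.1 to 80.3 FPKM. Etfb, which brings electrons from fatty acid oxidation, was at 328 and 385 FPKM in WT and 184 and 189 in Lf-/- cells at the earlier stage, with 245 in WT and 132 and 264 in Lf-/- cells at the later stage, and its pre-pro-B groups did not overlap (-0.93 ± 0.40, adjusted p = 0.941).

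Regulators of mitochondrial biogenesis were low. Ppargc1a and Ppargc1b, the coactivators that drive the program in muscle and brown fat, reached at most 0.172 and 0.213 FPKM. Nrf1 was at 1.48, 0.995 and 1.21 FPKM in WT and 2.16, 3.40, 2.40 and 2.13 in Lf-/- libraries, with no overlap (0.67 ± 0.30 over both stages, adjusted p = 0.689). Gabpa was at 0.988 to 1.40 FPKM in WT and 1.32 to 3.89 in Lf-/- libraries, which overlap. Tfam, which packages mitochondrial DNA and acts in its transcription, was at 3.33 and 2.71 FPKM in WT and 3.12 and 2.80 in Lf-/- cells at the earlier stage, with 1.68 in WT and 4.89 and 4.52 in Lf-/- cells at the later stage. Its pro-B difference of 1.09 had no test. All 9 of the 12 biogenesis genes that were tested had a higher mean of log2(FPKM + 1) over both stages, where 66.8% of all genes did. Under median-ratio scaling 2 of the 9 had a lower one.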

How the data were processed

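Total RNA of the sorted cells was extracted with a mirVana kit and sequenced on a NovaSeq instrument. The deposited tables, made by the authors, hold 1 FPKM value per gene and library. The unit is not named in the tables and was read from their values. The processing notes name TopHat, Cufflinks, HTSeq, DESeq and GRCm38, without their order, and strand and multi-mapping settings are not given in the sources used here. The other sample of WT pro-B cells is not analysed here.

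Groups were taken from the labels. The members and lists were chosen with earlier results of these data known. Of the 52550 genes, 52403 were matched to GENCODE M21 (GRCm38) by identifier. Genes at 1 FPKM or more in at least 2 libraries of a fit were fitted on log2(FPKM + 1) with limma 3.58.1 (R 4.3.3) and a mean-variance trend, with two-sided p-values adjusted by Benjamini-Hochberg over all genes tested (threshold 0.05). The fits were genotype in pre-pro-B cells, and genotype plus stage, with and without their interaction, over all 7 libraries. With 1 WT pro-B library, pro-B differences of 1 or more on the log2 scale with both Lf-/- values on 1 side were counted without a test. Shares of summed FPKM were compared by exact two-sided permutation. Near-identical copies were found with blastn 2.17.0 (95% identity over 80% of the coding bases). Genes named were the 2 highest, the most positive and the most negative of each role, the isoform sets, the 3 with the largest replicate difference, and up to 3 genes of a list. Any other gene was named with its values known. Each fit without the interaction was first tested on simulated data, and the fit with it was not. Alternatives were median-ratio scaling, quantile normalization, equal totals with and without the neutrophil granule genes, a pseudocount of 0.1, other filters, a replicate block and each library left out. Adding copies, scaling to the members' median and the counts without overlap under other scalings were chosen after seeing the data. Other steps used Python 3.11.15 with pandas 2.3.3, numpy 2.4.6, scipy 1.17.1 and matplotlib 3.10.9.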

Additional observations from a re-analysis of the deposited data

How the results depend on the processing

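Of 734 values under alternatives, 671 kept their direction and side of the threshold or moved by less than the replicate spread. No member passed the adjusted threshold under another scaling, filter, pseudocount or block. Without Lf-/- pre-pro-B replicate 1, limma called 3338 of 9143 genes (36.5%) and 11 members in pre-pro-B cells, where the lone Lf-/- library was assumed to vary like the 2 WT libraries. Over the fits that leave out 1 library, members called ran from 0 to 11 in pre-pro-B cells and from 0 to 1 for the difference of differences (Ndufaf6, lower, without the same library, where 5.3% of all genes were called), and members 2-fold apart in pro-B cells numbered 3 without Lf-/- replicate 1 (13.2% of all genes) and 5 without Lf-/- replicate 2 (19.8%).

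The median of the members in pre-pro-B cells was 0.016 with libraries set equal at the members' median, as its construction sets. Over both stages it was -0.35 under median-ratio scaling and -0.19 under quantile normalization, and -0.19 to 0.061 with a library left out, lowest without WT pro-B. Between stages it was 0.27 with equal totals without the granule genes, and -0.11 to 0.24 with a library left out. For the difference of differences it was 0.028 under median-ratio scaling, 0.14 under quantile normalization, -0.0048 at the members' median and 0.32 to 0.67 with a library left out, and 0.37 relative to all genes with no filter. In pro-B cells it was -0.33 under median-ratio scaling, -0.098 under quantile normalization, 0.061 with equal totals without the granule genes, 0.016 at the members' median and 0.11 to 0.49 with a library left out, and 0.15 relative to all genes with no filter. Members 2-fold apart numbered 5, all lower, under median-ratio scaling (7.58% of all genes), 0 under quantile normalization (6.98%), 10, all higher, with equal totals (22.8%), 1, lower, without the granule genes (13.6%), 5, all higher, with a pseudocount of 0.1 (26.4%) and 1, lower, at the members' median (9.03%).

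The difference in the members' share over both stages, in percentage points, was -0.364 without the granule genes in the total, -0.361 without these and the mitochondrially encoded genes, and -0.0908 to 0.0830 with a library left out. Members without overlap in pre-pro-B cells numbered 54 lower and 7 higher without Lf-/- replicate 2 (45.9% and 27.6% of all genes). Over both stages they numbered 0 higher and 13 lower under median-ratio scaling (5.16% and 5.97%), and 0 lower with equal totals (0.574%) and without the granule genes (1.54%). With a pre-pro-B library left out, differences ran from -0.25 to 1.78 for Ndufv1, -0.46 to 0.98 for Ndufs4, -3.19 to 0.38 for Sdha, -0.0036 to 0.71 for Uqcrh and -0.14 to 0.88 for Atp5g2, and changed sign without Lf-/- replicate 2. The cause of these changes was not tested.

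Replicate numbers come from the labels. Deviations of same-numbered libraries correlated at 0.039 (WT and Lf-/- pre-pro-B), 0.053 (WT pre-pro-B and Lf-/- pro-B) and -0.013 (Lf-/- pre-pro-B and Lf-/- pro-B) over 10793 genes, so the numbers were not taken to pair the libraries. With the replicate block limma called 65 genes and 0 members in pre-pro-B cells (median of the members -0.19), 22 genes and 0 members over both stages, and 0 members between stages and for the difference of differences. The single WT pro-B library and the unknown depth of Lf-/- pre-pro-B replicate 2 limit these values.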

Other observations

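Of the mitochondrially encoded subunits, mt-Atp6 did not follow mt-Nd1 between libraries. mt-Atp6, chosen after its values were seen, was at 2798 and 452 FPKM in WT and 3010 and 550 in Lf-/- cells at the earlier stage, with 2239 in WT and 3856 and 2623 in Lf-/- cells at the later stage. In the 2 libraries where it was under 600 FPKM, mt-Nd1, a core subunit of complex I read from the same genome, was at 667 and 1322 FPKM, within or above its range of 525 to 1309 FPKM elsewhere. In the same 2 libraries mt-Atp8 was at 792 and 966 FPKM, against 991 to 1577 FPKM elsewhere. The 2 libraries belong to different genotypes. The mt-Atp6 values thus account for part of the low mitochondrial share of WT pre-pro-B replicate 2.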
